A study of Mus musculus with 35 samples.

Results

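Messenger RNA of 37 mouse genes for enzymes, cofactors and membrane proteins of the lysosome was followed through 35 libraries of colon tumour organoids. The genes were taken by symbol from a fixed list, out of 54354 genes in the deposited table, and all 37 were found there. They are 10 proteases, 7 sugar- or sulfate-cleaving enzymes, 6 genes of lipid handling, 8 membrane proteins, 4 subunits of the proton pump, progranulin (Grn) and the transcription factor Tfeb. One of them, Asah2, encodes a neutral ceramidase that is found mainly at the plasma membrane. The organoids, epithelial cultures grown in gel, carry a genotype labelled AKP whose alleles are not spelled out in the labels. This genotype is shared by every group, controls included. The palmitic acid experiment held 3 control libraries, 3 libraries of organoids given palmitic acid in batch 1 and 2 given it in batch 2. The controls are assigned to neither batch, so batch and treatment cannot be told apart there. The carmofur experiment held 12 control and 15 carmofur libraries. Palmitic acid is a saturated fatty acid from which cells also build ceramides, and carmofur inhibits ceramidases, which split ceramides. The study asked how fatty acid and ceramide levels alter transcription in these organoids. Whether a change with carmofur went through ceramidases or through another action of the drug was not tested. Neither doses nor times are given in the labels. Nothing in the labels says that the libraries of a group come from separate cultures, so the p-values below measure the spread between libraries, which may be technical.

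Lysosomes are acidic compartments in which proteins, complex sugars and lipids are broken down. A proton pump, the V-ATPase, acidifies them. Hydrolases reach them from the Golgi, glycoproteins such as LAMP1 and LAMP2 line their membrane, and NPC1 and NPC2 pass cholesterol out. Sphingolipids, ceramide among them, are degraded there by hydrolases that need the small activator proteins cut from prosaposin (Psap). The transcription factor TFEB and its relatives bind a short palindrome, the E-box CACGTG, in the promoters of many of these genes. In its extended form GTCACGTG this motif is part of the element named for coordinated lysosomal expression and regulation.

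The promoter letters are shown first, as a feature of the genes that does not depend on their levels. RefSeq promoter windows on GRCm38.p6, from 250 bases before to 50 after a gene's start, matched 32 of the 37 genes, and Ctsb, Ctsh, Atp6v1h, Laptm4b and Npc1 had no window. CACGTG, which reads the same on both strands, stood in the windows of 11 of the 32 (34.4%), against 8.09% of all 27025 genes with a window of this length. TCACGTG, searched on both strands and containing CACGTG, stood in 10 (31.2%, against 4.29%). GTCACGTG, which contains both shorter motifs, stood in 8 (25.0%, against 2.55%). These matches describe letters and not binding. The next lines give 30-base windows around the motif, 5′ to 3′ on the gene's strand with CACGTG in capitals.
Lamp1 (chr8:13159088-13159117, plus strand): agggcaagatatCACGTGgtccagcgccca
Lamp1 (chr8:13159121-13159150, plus strand): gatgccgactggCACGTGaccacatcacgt
Ctsd (chr7:142387908-142387937, minus strand): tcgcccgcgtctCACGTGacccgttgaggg
Ctsd (chr7:142388048-142388077, minus strand): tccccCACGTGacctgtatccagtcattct
Ctsa (chr2:164833749-164833778, plus strand): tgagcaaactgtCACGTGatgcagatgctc
Glb1 (chr9:114401018-114401047, plus strand): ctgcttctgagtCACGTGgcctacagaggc
Sgsh (chr11:119355522-119355551, minus strand): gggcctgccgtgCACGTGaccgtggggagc
Atp6v0d1 (chr8:105566050-105566079, minus strand): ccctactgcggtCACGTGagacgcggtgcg
Mcoln1 (chr8:3500462-3500491, plus strand): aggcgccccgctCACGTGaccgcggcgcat
Lamp1 held 4 copies of CACGTG within the 61 bases before its start. Ctsd, the gene of the aspartic protease cathepsin D, held 2, Mcoln1, which encodes a lysosomal calcium channel, also 2, and Ctsa, which encodes the carboxypeptidase that protects lysosomal sialidase, 1 on each side of one of its RefSeq starts. The copy in the window of Ctsl is not shown, because that RefSeq start lies 214 bases from the nearest transcript start of GENCODE M21. It is still counted among those with CACGTG. The copy of Lgmn, in a window whose start lies 721 bases from such a transcript start, is counted for all 3 motifs.

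Of the 6 genes that rose with a treatment (below), 5 had a window, and 4 of these held no CACGTG there. The 250 bases before the start of 3 of these 4 are printed for comparison, with GGGCGG, the core of a GC box, and CCAAT in capitals on either strand (CCGCCC and ATTGG on the reverse strand).
Ctsc (chr7:88277835-88278084, plus strand): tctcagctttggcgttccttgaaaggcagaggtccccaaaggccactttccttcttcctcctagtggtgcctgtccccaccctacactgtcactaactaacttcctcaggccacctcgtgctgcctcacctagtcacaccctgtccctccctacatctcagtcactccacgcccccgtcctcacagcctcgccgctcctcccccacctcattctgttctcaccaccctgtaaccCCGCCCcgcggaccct
Ctsz (chr2:174439040-174439289, minus strand): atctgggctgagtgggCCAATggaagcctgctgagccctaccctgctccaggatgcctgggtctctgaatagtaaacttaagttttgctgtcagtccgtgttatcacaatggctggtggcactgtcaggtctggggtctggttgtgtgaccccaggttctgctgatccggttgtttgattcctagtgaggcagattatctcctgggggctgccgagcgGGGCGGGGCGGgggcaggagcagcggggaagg
Lamp2 (chrX:38456461-38456710, minus strand): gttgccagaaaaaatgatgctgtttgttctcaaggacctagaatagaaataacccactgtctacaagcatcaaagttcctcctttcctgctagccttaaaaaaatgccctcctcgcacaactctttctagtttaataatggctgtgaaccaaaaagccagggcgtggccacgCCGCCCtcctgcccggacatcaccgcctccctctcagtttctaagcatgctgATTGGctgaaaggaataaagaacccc
Ctsc and Ctsz encode cysteine proteases and rose with carmofur, and Lamp2 rose with palmitic acid in batch 1. GGGCGG stood in 20 of the 32 windows (62.5%, against 38.2% of all genes) and CCAAT in 9 (28.1%, against 41.1%). Among the members tested with carmofur, the median log2 fold change was 0.19 for the 10 with CACGTG and 0.17 for the 18 without it. Ctsl is counted among the 10 through the window that is not shown, and Ctsh, without a window, is in neither group. Whether the motif bears on the changes was not tested.

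The palmitic acid controls held 762888 to 2511723 counts per library, batch 1 held 2138905 to 2845017 and batch 2 held 2406582 to 3742289. Depth was greater in the carmofur experiment, where controls held 1663750 to 8124707 and treated libraries 3127275 to 10609563. Levels are CPM (counts divided by the scaled library total) after TMM scaling. The 3 counts that a count of 0 allows correspond to 0.292 CPM where the depth was greatest and to 3.87 CPM for palmitic acid control 1, and this limit covers counting error only. Carmofur control 1 and carmofur 8 and 10 stood apart, with median rank correlations of 0.77, 0.78 and 0.781 to their own group. Without these 3 libraries 4 of the 5 calls below were kept, and that of Ctsz was lost (log2 fold change 0.61, adjusted p = 0.0538). The epithelial markers Epcam, Krt8, Cdh1 and Vil1 were present throughout, with Epcam at a median of 354 CPM in the carmofur controls. The macrophage genes Csf1r, Adgre1, C1qa and Tyrobp, from a list of 12 immune genes, had no count in any of the 35 libraries. Not all of the list was absent: 10 of the 12 had no count in the carmofur controls and 7 had none with carmofur.

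A few genes carried most of the lysosomal mRNA. Per kilobase of exon, the carmofur controls had median levels of 173 CPM for Laptm4a, a small membrane protein of late endosomes and lysosomes, 150 for Ctsd, 93.7 for Ctsl, 88.4 for the tetraspanin gene Cd63 and 78.9 for Ctsb. The palmitic acid controls had the same 3 genes at the top, with Ctsd at 172, Laptm4a at 160 and Ctsl at 120 CPM per kilobase. Counted in every library were 27 of the 37 genes, while 10 lacked a count in at least 1. In the carmofur controls 15 genes had a median of at least 50 CPM and 7 one under 5 CPM. Tfeb was among the lowest, at 0 to 4.89 CPM with a median of 0.28 in those controls and 0 to 1.71 with a median of 0.157 with carmofur. Asah2 was at 0 in all 3 palmitic acid controls and ran from 0 to 19.6 CPM in the carmofur controls, with a median of 0.302. Sgsh, a sulfatase of heparan sulfate breakdown, ran from 0 to 17.5 CPM there, with a median of 0.261. Tfeb, Asah2, Sgsh and Ctss were too low for the test in either experiment, and Mcoln1 in the palmitic acid experiment.

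**Figure D1:**
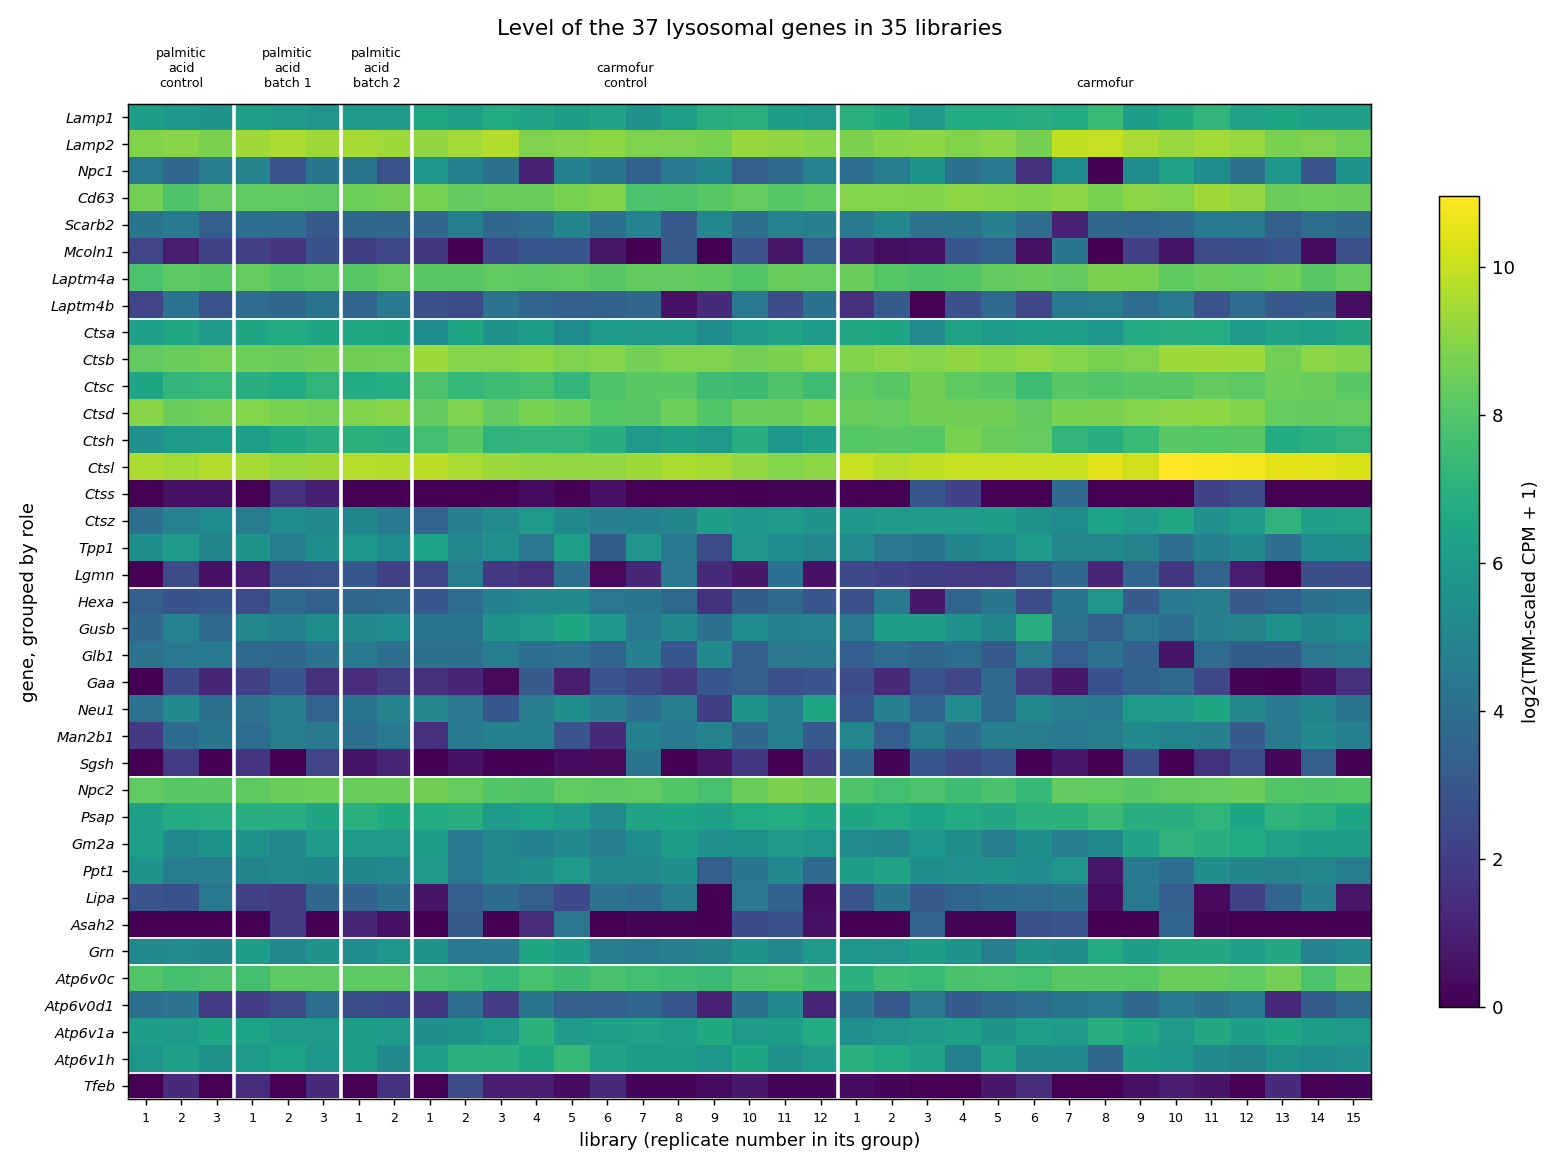
Level of the 37 genes (rows, grouped by role) in the 35 libraries (columns, grouped by treatment, numbered by replicate), as log2 of TMM-scaled CPM plus 1. Lamp2, Cd63, Laptm4a, Ctsb, Ctsd, Ctsl, Npc2 and Atp6v0c are bright in every library, and the Ctsl row is brightest in the carmofur columns.

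With carmofur, 4 cathepsin genes and Cd63 rose. The 5 are 15.2% of the 33 members tested, where 5.21% of all 9992 genes tested were called higher. None was called lower, against 3.8% of all genes. At an unadjusted p under 0.05, 2 members were lower, against 8.47% of all genes. All p-values are from edgeR's quasi-likelihood test, adjusted by Benjamini and Hochberg over every gene tested, with a threshold of 0.05. The median log2 fold change over the 33 was 0.18, against 0.00 over all genes, and 25 of the 33 lay above 0, against 50.2% of all genes. In bulk RNA, a change in the number of cells of a type and a change of mRNA per cell cannot be told apart.

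Ctsl encodes cathepsin L, an endopeptidase (chromosome 13, 64359337 to 64370890 on mm10, minus strand). The controls ran from 488 to 911 CPM with a median of 608, and the carmofur libraries from 863 to 1990 with a median of 1150. The groups overlapped only through control 1, whose level of 911 CPM exceeded that of carmofur 2 at 863. The means were 648 ± 122 (SD, n = 12) and 1290 ± 352 (n = 15). The log2 fold change was 0.99 ± 0.12 (SE), with an adjusted p of 5.53e-08.

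Ctsh, the gene of the aminopeptidase cathepsin H (chromosome 9, 90054152 to 90076089, plus strand), had the next largest change. It ran from 55.6 to 273 CPM with a median of 116 in the controls and from 107 to 427 with a median of 267 with carmofur. The groups overlapped widely, yet 14 of 15 carmofur libraries lay above the control median. Its log2 fold change was 0.96 ± 0.25 (adjusted p = 0.00841). Ctsz encodes the carboxypeptidase cathepsin Z (chromosome 2, 174427493 to 174439039, minus strand). Its levels were 10.1 to 68.9 CPM in the controls, median 37.6, and 38.9 to 140 with carmofur, median 64.9. All 15 carmofur libraries exceeded the control median, and the log2 fold change was 0.75 ± 0.22 (adjusted p = 0.0203).

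Ctsc encodes cathepsin C, a dipeptidyl peptidase that activates granule proteases (chromosome 7, 88278085 to 88310888, plus strand). The controls ran from 151 to 286 CPM, median 202, and the carmofur libraries from 188 to 385, median 288. Of the treated libraries 14 were above the control median and 8 above the highest control. The log2 fold change was 0.47 ± 0.11 (adjusted p = 0.00236). Cd63, a tetraspanin of late endosomes and lysosomes (chromosome 10, 128900989 to 128912822, plus strand), ran from 233 to 474 CPM, median 325, and from 351 to 664, median 487. All 15 carmofur libraries lay above the control median and 9 of them above the highest control. Its log2 fold change was 0.55 ± 0.11 (adjusted p = 0.000332).

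**Figure D2:**
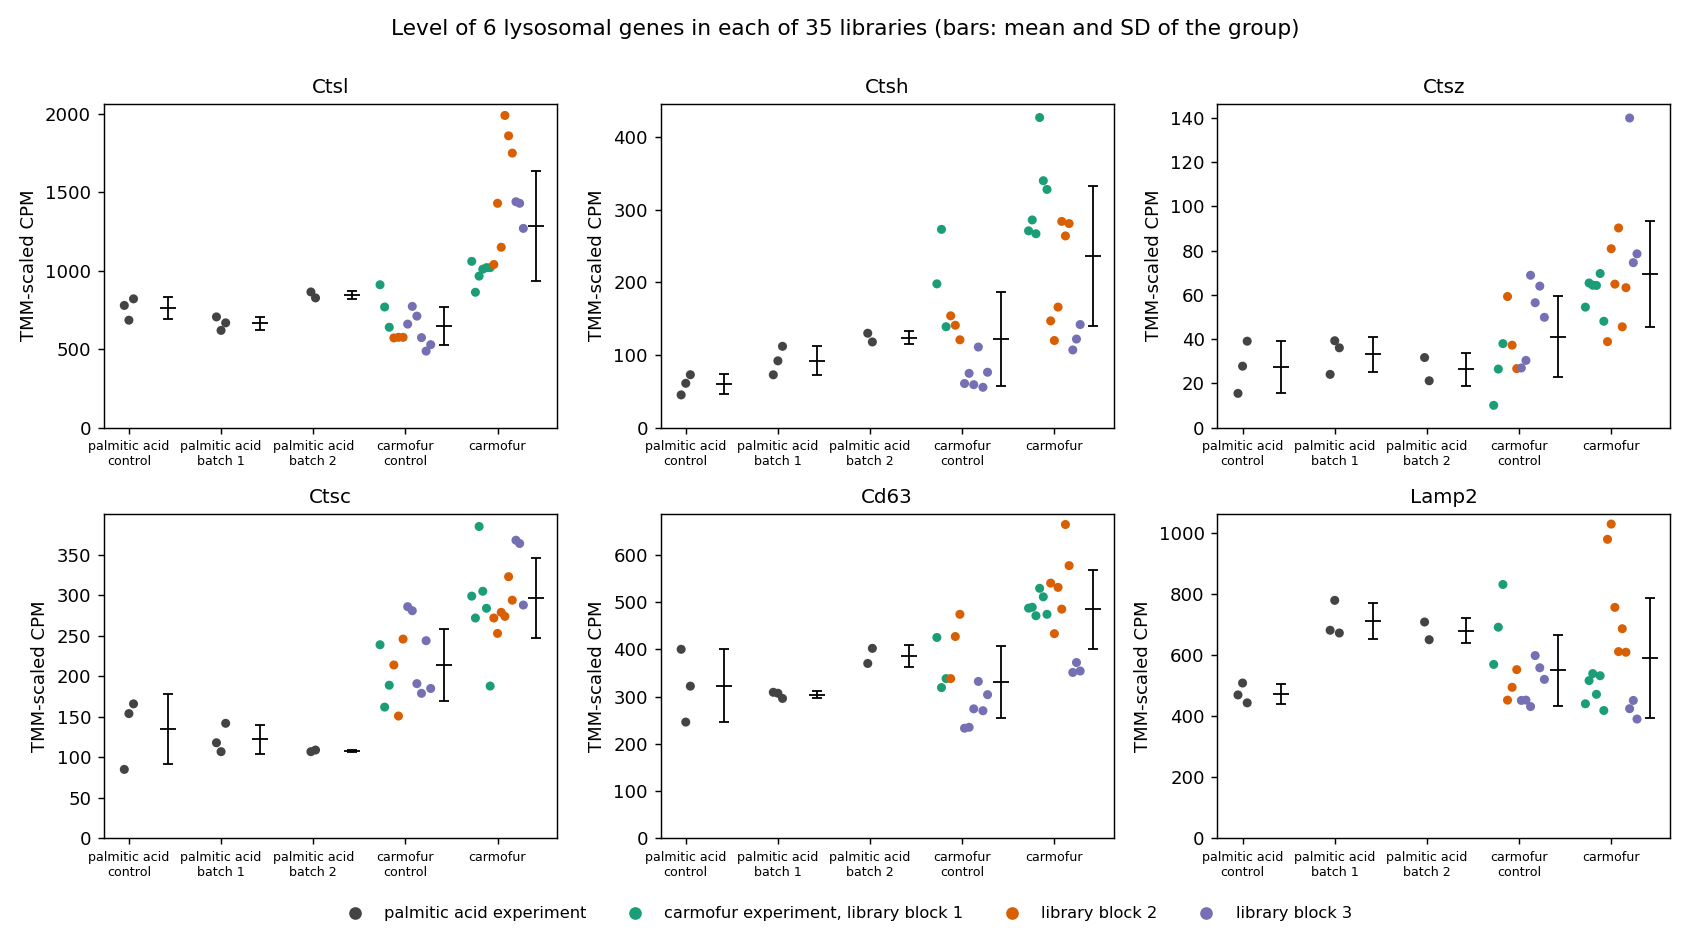
TMM-scaled CPM of Ctsl, Ctsh, Ctsz, Ctsc, Cd63 and Lamp2 in each library (points) by group, with the group mean and SD as bars and colours for the library blocks of the carmofur experiment. Ctsl rises from 488 to 911 CPM in the controls to 863 to 1990 with carmofur, and Lamp2 from 444 to 509 CPM in the palmitic acid controls to 673 to 780 in batch 1.

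The other 5 proteases tested did not pass. Ctsd was at 257 to 451 CPM in the controls and 318 to 541 with carmofur (log2 fold change 0.20 ± 0.10, adjusted p = 0.319), and Ctsb at 402 to 657 and 398 to 668 (0.11 ± 0.09, adjusted p = 0.56). Ctsa was at 0.43 ± 0.17 (adjusted p = 0.117), with 13 of 15 treated libraries above the control median. For the tripeptidase gene Tpp1 the value was -0.25, and for the asparaginyl endopeptidase gene Lgmn -0.63. Ctss, a cathepsin typical of antigen-presenting cells, stayed at or below 0.435 CPM in the carmofur controls. It had no count in 10 carmofur libraries and lay at 3.55 to 13.4 CPM in the other 5.

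Among the glycosidases and the sulfatase none of the 6 tested passed. Glb1, the beta-galactosidase, had the lowest p, with 6.84 to 36 CPM in the controls, 0.534 to 25.7 with carmofur (log2 fold change -0.50 ± 0.36, adjusted p = 0.532). Gusb, the beta-glucuronidase often used as a reference gene, was at 0.01 ± 0.31 over all carmofur libraries. Hexa, Gaa, Neu1 and Man2b1 lay between -0.09 (Hexa) and 0.46 (Man2b1).

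In lipid handling none of 5 passed. Psap had the lowest p of these, with 38 to 120 CPM in the controls, median 86.4, and 82 to 178 with carmofur, median 115. Of its carmofur libraries 13 were above the control median, and the log2 fold change was 0.43 ± 0.15 (adjusted p = 0.0678). Gm2a, the activator of ganglioside breakdown, was at 0.55 ± 0.25 (adjusted p = 0.202). The cholesterol carrier gene Npc2 had a value of -0.26 ± 0.12 (adjusted p = 0.202), with 11 of 15 treated libraries below the control median. For Lipa, the acid lipase, and Ppt1, a thioesterase that removes palmitate from proteins, the values were 0.07 and 0.19. Grn, a precursor of lysosomal granulins, was at 0.64 ± 0.25 (adjusted p = 0.108).

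Of the 8 membrane proteins Cd63 alone passed. Lamp1 had a value of 0.29 ± 0.16 (adjusted p = 0.32), Lamp2 of 0.10 ± 0.13 (0.782) and Laptm4a of 0.12 ± 0.09 (0.534). The hydrolase receptor gene Scarb2 was at -0.35, Npc1 at 0.47, Mcoln1 at 0.18 and Laptm4b at 0.10. The 4 pump subunits did not pass and did not share a sign. With the block of 12 running library numbers as a covariate, Atp6v0c (0.40, adjusted p = 0.0159) and Atp6v1h (-0.87, adjusted p = 0.00783) passed. Atp6v0c, the membrane ring subunit, had 157 to 252 CPM in the controls and 126 to 403 with carmofur (0.38 ± 0.13, adjusted p = 0.0662). Atp6v1h, a regulatory subunit, had 48.8 to 161 CPM and 12 to 127 CPM, with 9 carmofur libraries below the lowest control (-0.67 ± 0.25, adjusted p = 0.0882). For the membrane subunit Atp6v0d1 and the catalytic subunit Atp6v1a the values were 0.40 and -0.09.

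**Figure D3:**
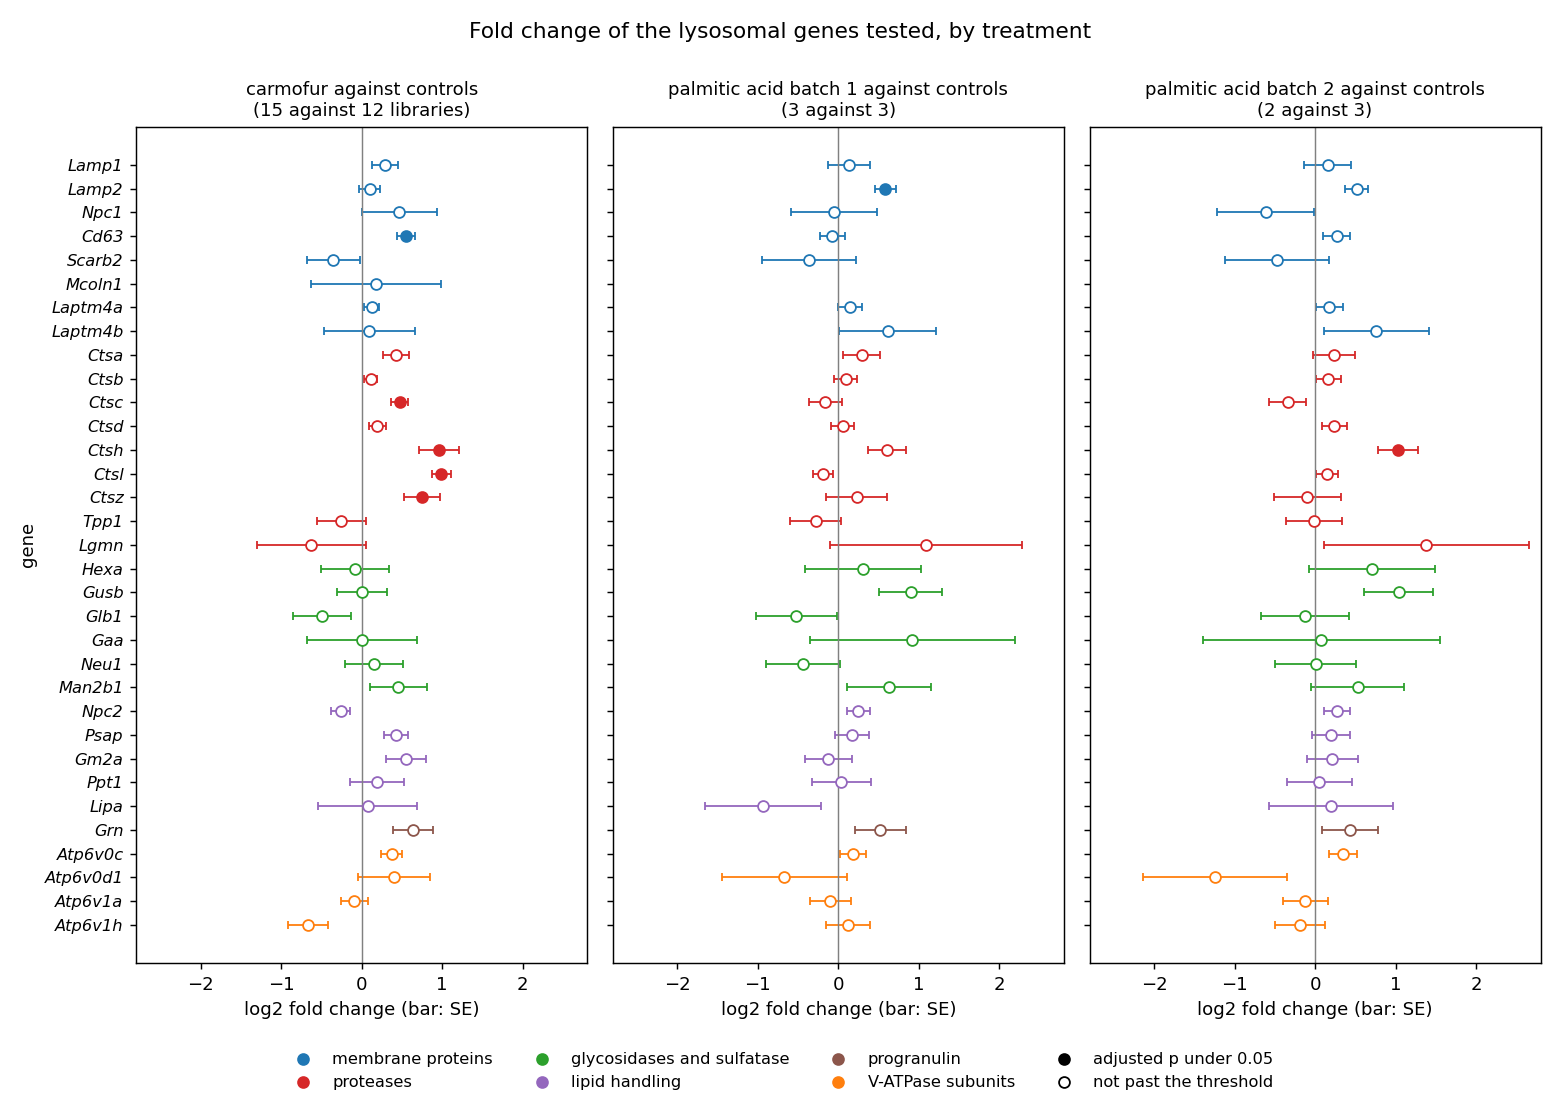
Log2 fold change (points) with its standard error (bars) for the members tested, in carmofur, palmitic acid batch 1 and batch 2, each against its own controls, coloured by role and filled where the adjusted p was under 0.05. Filled points are Cd63, Ctsc, Ctsh, Ctsl and Ctsz with carmofur, Lamp2 in batch 1 and Ctsh in batch 2.

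The summed level of the 37 genes was 3780 to 5000 CPM in the carmofur controls, median 4300, and 4880 to 7170 with carmofur, median 5180. The 5 genes that rose, picked by that rise in these same libraries, had summed medians of 1330 and 2230 CPM. For the other 32 together the direction depended on the statistic, with medians of 3060 and 2940 CPM, means of 2970 ± 247 and 3220 ± 441 (SD), and ranges of 2480 to 3210 and 2800 to 4020.

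Running numbers in the names of the carmofur libraries form 9 sets, each of 3 numbers in a row, within 3 blocks of 12. Each set holds libraries of 1 group, and the labels do not call sets or blocks batches. Ctsl levels differed by set. Set means were 773, 575, 715 and 530 CPM for control replicates 1 to 3, 4 to 6, 7 to 9 and 10 to 12. For carmofur replicates 1 to 3, 4 to 6, 7 to 9, 10 to 12 and 13 to 15 they were 962, 1020, 1210, 1870 and 1380 CPM. Every carmofur set mean exceeded every control set mean, in a gene called over these same libraries. The same held for Ctsc, at 197 to 253 CPM in control sets and 259 to 340 in carmofur sets, and for Ctsz, at 24.9 to 56.8 and 60.7 to 97.8. For Cd63 and Ctsh this held within each block but not across blocks. Cd63 had a control set at 413 CPM in block 2 and a carmofur set at 359 in block 3, and Ctsh a control set at 203 in block 1 and carmofur sets at 145 in block 2 and 124 in block 3.

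With the counts of each set summed (5 sets against 4), Ctsl alone of the 5 kept its call, with fewer samples in the test. The log2 fold changes of the others were 0.61 for Cd63, 0.48 for Ctsc, 0.98 for Ctsh and 0.75 for Ctsz (adjusted p from 0.0792 to 0.2). Within blocks 1, 2 and 3 the log2 fold changes were 0.36, 1.39 and 1.12 for Ctsl, 0.45, 0.35 and 0.36 for Cd63, and 0.56, 0.44 and 0.55 for Ctsc. They were 0.65, 0.58 and 0.73 for Ctsh and 1.27, 0.62 and 0.96 for Ctsz. All 15 of these values were above 0. The 5 genes were picked by their call over these same libraries, so the shared sign is not a separate result. Only Ctsl in blocks 2 and 3 passed the test on a single block. Leaving out single sets ended the call of Ctsz (without the control set of replicates 1 to 3 or 4 to 6, or the carmofur set of 13 to 15; adjusted p from 0.0559 to 0.104). The call of Ctsh ended without the control set of replicates 7 to 9 (adjusted p = 0.0549) or 10 to 12 (0.0687).

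The carmofur effect differed between blocks for 3 of the 36 members tested, where 1.07% of 13123 genes did, in a test chosen after the data were seen. Ctsl was one, with the values given above (adjusted p of the difference 0.0156). For Lamp2 the log2 fold changes were -0.52, 0.61 and -0.28 (0.00614), and the carmofur set of replicates 7 to 9 had a mean of 923 CPM where the other carmofur sets had 422 to 636. For Gusb they were 1.02, -1.86 and 0.43 (0.0162), and its control set of replicates 4 to 6 had 68.5 CPM where the other control sets had 25.4 to 31.6. Psap at 1.05, Gm2a at 1.47 and Lamp2 at 0.61 passed as higher in block 2, and Gusb and Atp6v1h (-1.55) as lower. Npc2 passed as lower in block 1 (-0.64) and Atp6v0c as higher in block 3 (0.65). Whether sets or blocks differ in time, plate or culture was not tested.

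**Figure D4:**
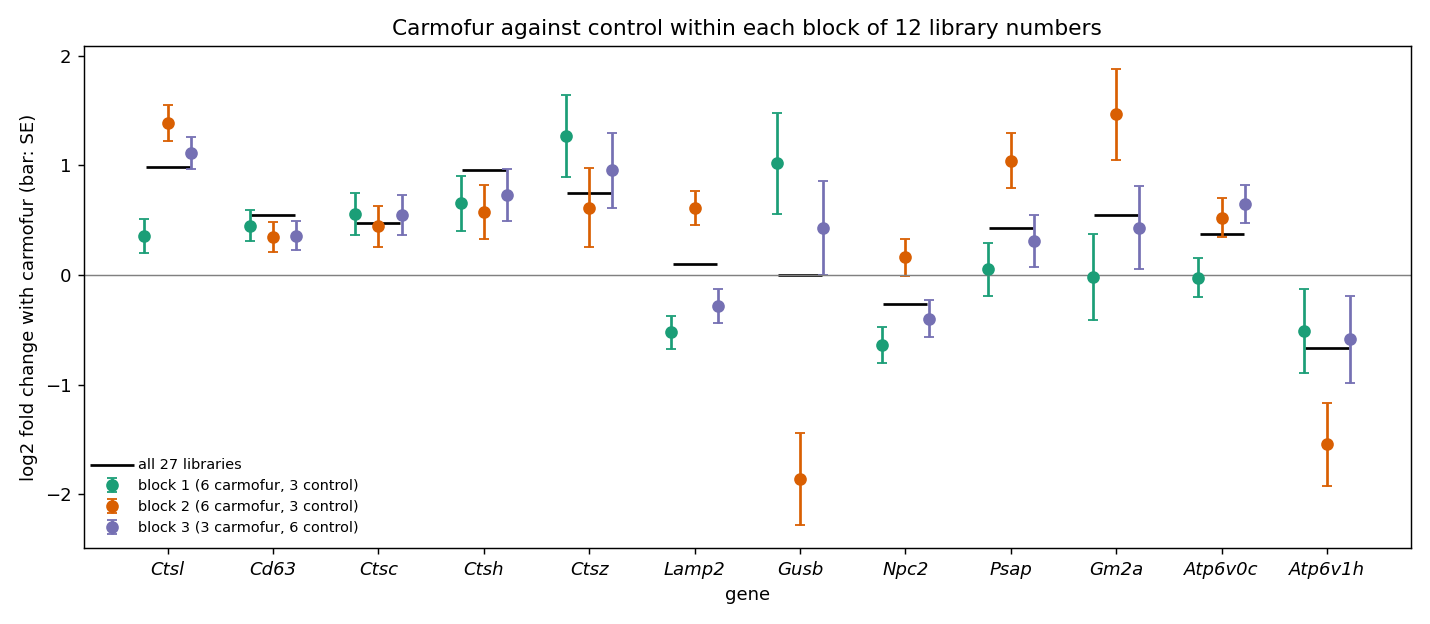
Log2 fold change with carmofur (points) and its standard error (bars) within each of the 3 library blocks for 12 members, with a black dash for all 27 libraries together. Cd63, Ctsc, Ctsh and Ctsz, which were called over all 27 libraries, lie above 0 in all 3 blocks, and Lamp2 and Gusb change sign between blocks.

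With palmitic acid, Lamp2 rose in batch 1 and Ctsh in batch 2. Lamp2 is 1 of 32 members tested, where 0.315% of 9845 genes were called higher, and Ctsh likewise 1 of 32, where 0.183% were. At an unadjusted p under 0.05 there were 3 higher members in each batch, Lamp2, Ctsh and Gusb, against 4.23% of all genes in batch 1 and 3.81% in batch 2. The median log2 fold change of the 32 was 0.12 in batch 1 (all genes 0.01) and 0.19 in batch 2 (all genes -0.01). Of the 32, 20 lay above 0 in batch 1 (51.3% of all genes) and 23 in batch 2 (49.1% of all genes). The batches share their controls, so these values are not independent of each other.

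Lamp2 encodes a heavily glycosylated membrane protein that also takes part in autophagy (chromosome X, 38401357 to 38456454, minus strand). It was at 470, 509 and 444 CPM in controls 1 to 3, at 682, 780 and 673 in batch 1 and at 709 and 651 in batch 2. Every treated library exceeded every control. Such a separation is weak with so few libraries. Those of batch 2 also exceeded every control for Ctsl, Hexa, Gusb, Npc2, Grn and Atp6v0c, none of which passed. The same held for Ctsh (below) and for Asah2, which was too low for the test. The share of all genes separated in this way was not computed. The log2 fold change of Lamp2 was 0.58 ± 0.13 in batch 1 (adjusted p = 0.00853) and 0.52 ± 0.14 in batch 2 (adjusted p = 0.0927), which did not pass. Without batch 1 replicate 2 the batch 1 value was 0.49 and did not pass (adjusted p = 0.286).

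Ctsh was at 45.1, 61.1 and 72.9 CPM in the controls, 72.8, 92 and 112 in batch 1 and 130 and 118 in batch 2. Batch 2 did not overlap the controls, which is a weak separation with so few libraries, and batch 1 touched them. Its log2 fold change was 1.03 ± 0.25 in batch 2 (adjusted p = 0.0378) and 0.60 ± 0.23 in batch 1 (0.431). The batch 2 call was near the threshold and was lost in 8 of 15 alternative fits, among them those without control 1, control 2 or any single treated library (adjusted p from 0.0521 to 0.556). The log2 fold change stayed at 0.89 to 1.11 in those 8 fits. The highest p-values, 0.186 and 0.556, were those with 1 batch 2 library left, which was assumed to vary like the other groups. Gusb was at 11.6, 27.8 and 13 CPM in the controls, 33.2, 26.9 and 41.8 in batch 1 and 35.2 and 39.5 in batch 2. Control 2 exceeded 1 batch 1 library, and neither value passed (0.90 ± 0.39, adjusted p = 0.549, and 1.04 ± 0.42, adjusted p = 0.517).

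Ctsl was not called with palmitic acid in either batch. It was at 779, 685 and 821 CPM in the controls, 706, 620 and 668 in batch 1 and 865 and 827 in batch 2, with log2 fold changes of -0.20 ± 0.13 (adjusted p = 0.769) and 0.15 ± 0.14 (0.974). Cd63 was at 400, 246 and 322 CPM, 309, 307 and 296, and 370 and 402. The controls alone spanned the treated values but 1. Ctsc had log2 fold changes of -0.16 and -0.34, and Ctsz of 0.23 and -0.09. The abundant genes Ctsd (0.06 and 0.24), Ctsb (0.09 and 0.17) and Laptm4a (0.14 and 0.18) did not pass in either batch. Npc2 was at 311, 277 and 288 CPM in the controls, 306, 360 and 373 in batch 1 and 342 and 361 in batch 2 (0.25, adjusted p = 0.724, and 0.27, adjusted p = 0.799). Atp6v0c had 250, 208 and 240 CPM, then 208, 292 and 291, and then 295 and 293 (0.18 and 0.34, adjusted p = 0.866 and 0.712). Between the batches no member passed, where 0.102% of genes did, and 2 members, Ctsl and Cd63, had an unadjusted p under 0.05. The summed level of the 37 genes was 3890 to 4100 CPM in the controls, whereas batch 1 had 4370 to 4380 and batch 2 had 4750 to 4760. Lamp2 was a large part of this difference in batch 1 and a smaller part in batch 2. The mean sums were 4030, 4380 and 4760 CPM in the controls, batch 1 and batch 2, and the means of Lamp2 alone 474, 711 and 680.

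The carmofur effect and the palmitic acid batch 1 effect were compared in 1 fit of all libraries, each against its own controls. Ctsl differed, 1 of 36 members tested, where 0.548% of 14052 genes differed in that direction. The difference of its log2 fold changes, carmofur minus palmitic acid batch 1, was 1.19 ± 0.25 (adjusted p = 0.00822), and without batch 1 replicate 3 the adjusted p was 0.0553. Cd63 (0.64 ± 0.24, adjusted p = 0.383), Ctsc (0.64 ± 0.27, adjusted p = 0.523) and Lamp2 (-0.47 ± 0.29, adjusted p = 0.913) did not pass. For Ctsh the difference from batch 1, in which it had not passed, was 0.37 ± 0.53. The difference from batch 2, in which Ctsh had passed, was not tested for any member, Ctsl included.

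Other genes of the organelle were read from lists that do not overlap the 37. Of 14 other pump subunits tested, 2 rose with carmofur, where 5.21% of all genes tested were called higher. Atp6v0b, a membrane ring subunit, ran from 187 to 371 CPM in the controls and 315 to 585 with carmofur (0.56 ± 0.11, adjusted p = 0.000248). Atp6v1d, a subunit of the rotor stalk, ran from 175 to 322 CPM and 275 to 385 (0.32 ± 0.10, adjusted p = 0.0273). Of 4 inhibitors of cysteine cathepsins tested, 2 rose, against the same 5.21% of all genes. Cst6, which encodes a secreted cystatin, had medians of 0.958 and 8.33 CPM (2.29 ± 0.65, adjusted p = 0.0168). Csta1, a stefin, had 4 counts in all over the 12 controls, at most 0.256 CPM, and 605 counts over the carmofur libraries at 0.242 to 21.4 CPM (adjusted p = 1.99e-06), and reads may be shared with its close paralogs. The abundant inhibitor genes Cstb (-0.08) and Cst3 (0.17) did not pass.

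No other list of organelle genes had a member past the threshold with carmofur, where 9.02% of all genes passed. This covered 26 other hydrolases and activators (median log2 fold change 0.05, with the phosphatase gene Acp2 at 1.24), 17 other membrane proteins (0.22, Cd164 at -0.24 and the chloride exchanger gene Clcn7 at 0.84) and 20 genes of sorting to the lysosome (-0.14, Vps35 at -0.16 and Vps39 at -0.63). It also covered 15 relatives of TFEB and partners of mTORC1, with a median of -0.17. Of these 15, 4 lay above 0, against 50.2% of all genes. The lowest p among these were those of Lamtor2, at 517 to 711 CPM in the controls and 363 to 749 with carmofur (-0.27 ± 0.09, adjusted p = 0.0739), and Lamtor3 (-0.31 ± 0.11, adjusted p = 0.0869), both subunits of the Ragulator scaffold. Among 21 autophagy genes the receptor gene Sqstm1 was at 22.5 to 111 CPM and 26.4 to 86 (-0.57 ± 0.20, adjusted p = 0.0698). With palmitic acid no member of these lists passed in either batch, where 0.559% of all genes passed in batch 1 and 0.325% in batch 2. The autophagy gene Gabarap had the lowest p of its list there, at 0.55 ± 0.18 in batch 1 (adjusted p = 0.213) and 0.69 ± 0.20 in batch 2 (0.121).

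Markers of other cells were read beside these results. The summed immune list was 54.4 to 168 CPM in the carmofur controls, median 116, and 40.3 to 144 with carmofur, median 90.8. In the palmitic acid experiment the sum lay at 69.3 to 99.5 CPM for controls, batch 1 lay at 51.7 to 117 and batch 2 at 54.2 to 59.9. Nearly all of it was Cd14, which epithelium can also express. Of its 12 genes 10 had no count in any carmofur control library and 7 none in any carmofur library. In the palmitic acid experiment 10 had none in the controls, 9 none in batch 1 and 8 none in batch 2. The mesenchymal sum, nearly all Vim, was 3.78 to 68.5 CPM and 8.8 to 78.3. Krt20, a keratin of differentiated surface epithelium, also rose with carmofur, from 0 to 11.5 CPM in the controls to 13.6 to 53.1 with carmofur (2.82 ± 0.51, adjusted p = 0.000101). It was 1 of 9 epithelial markers, where 5.21% of all genes tested were called higher. The part of Krt20 in the rise of the lysosomal genes was not tested.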

How the data were processed

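RNA of 35 organoid libraries was extracted with TRIzol and columns and made into directional poly(A) libraries, per the labels' protocols. The authors deposited 1 table of estimated counts per gene as whole numbers, made with Salmon 1.3.0 on mm10 per the submitters' processing notes, and the annotation release is not given in the sources used here. All 35 columns were matched to libraries by name. Genes were tested on the deposited estimated counts with edgeR 4.0.16 in R 4.3.3 (TMM, default expression filter, robust dispersions, quasi-likelihood F test), with adjustment over all genes tested and a threshold of 0.05. Palmitic acid libraries were fitted together (9845 genes), carmofur libraries together (9992) and all 35 for the difference (14052), with biological coefficients of variation of 0.407, 0.75 and 0.969. The standard error is the log2 fold change divided by the square root of F. The test was checked on simulated data with independent libraries, which does not cover libraries that vary together by set or block. No library repeated another: chi-square per degree of freedom was at least 7.87 in the 178 pairs within groups and 7.77 in the 417 pairs across groups. Gene positions and exon lengths are from GENCODE M21 (mm10), promoters from RefSeq. All members could be named. From the other lists, the genes past the threshold, or where none passed at most 2 of lowest p, were named, and abundant inhibitors and markers were added after their values were seen. A gene that this rule names is not reported here. The members and lists were chosen with earlier results of these data known. Alternatives were other size factors, DESeq2 1.42.0, limma 3.58.1 with voom, other filters, libraries or sets left out, the replicate block, and library blocks and sets.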

Additional observations from a re-analysis of the deposited data

Results flagged for a closer look

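The change of Ctsl with carmofur exceeded that with palmitic acid batch 1 by a log2 fold change of 1.19, which passed a test of the difference itself over all 35 libraries. The experiments were run as separate groups with separate controls. The carmofur effect also differed between the 3 blocks of library numbers for Lamp2 (adjusted p = 0.00614), Ctsl (adjusted p = 0.0156) and Gusb (adjusted p = 0.0162), in edgeR's quasi-likelihood test of the interaction. Lamp2 was higher with carmofur in block 2 alone, Gusb was lower there, and the value of Ctsl was smallest in block 1.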

How the results depend on the processing

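Of the values computed for single genes under the alternatives, 33 lost a call, 30 gained one and 1 reversed. The other 3466 stayed on their side of the threshold, 3247 with the same sign and 219, none of them called, with the other sign. The reversed value was that of Gusb with carmofur within block 2, at -1.86 (adjusted p = 0.00371) against 0.01 over all libraries. The 5 members called with carmofur (9.02% of all genes in either direction) became 8 without a filter on low counts (14.7% of all genes). Atp6v0c, Psap and Ctss, all higher, were added there. With counts summed by library set the 5 became 1 (2.64%). Within single blocks, where fewer libraries enter, the calls were 1 in block 1 (Npc2, lower, none of the 5, 1.1% of all genes), 6 in block 2 (Ctsl shared with the 5, 5.76%) and 2 in block 3 (Ctsl shared, 4.61%). Leaving out single library sets gave 4 to 8 (7.25% to 10.1% of all genes), with 8 without carmofur replicates 1 to 3, where Atp6v0c, Atp6v1h and Psap were added. Block as a covariate gave 7 (Atp6v0c and Atp6v1h added, 10.7%), voom 7 (12.3%) and library-size scaling 6 (8.9%). DESeq2 (11.7%), RLE size factors (9.04%) and a mean count of at least 10 (8.7%) gave 5. For palmitic acid batch 2 the 1 call became 2 with DESeq2 (Lamp2 added) and 0 with a mean count of at least 10, and 0 to 1 with single libraries left out. For batch 1 it was 0 to 1, and for the difference between treatments 0 to 1. The cause of these shifts was not tested. With the replicate number as a block the counts were 1 in batch 1, 1 in batch 2, 6 with carmofur (Atp6v1h added, -0.77, adjusted p = 0.0394) and 1 for the difference. Libraries that share a number did not deviate together (correlations from -0.023 to 0.046), so the numbers were not taken to pair them. Depth limits the genes under 5 CPM, where a single library holds few counts.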
